A study of Homo sapiens with 20 samples.

Results

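Gene expression was compared between NME1-E5A and NME1-P96S, derivatives of the WM793 melanoma line that overexpress different mutant forms of NME1. The comparison used the 4 arrays titled NME1-E5A and the 4 titled NME1-P96S, 8 of the 20 arrays of the study, over all rows of the deposited values. WM793 is an established cell line from a vertical growth phase melanoma, the stage at which a melanoma grows down into the dermis. The other 12 arrays are 4 each of the untransfected line (Parent), of a line with wild-type NME1 (NME1-wild-type) and of a line with another mutant (NME1-K12Q). All lines share the WM793 background, and all but Parent carry an NME1 overexpression construct. Cells were grown for 3 days, and total RNA was hybridised to Affymetrix Human Exon 1.0 ST arrays. Arrays of the same line are technical replicates, per the design text, and a construct has only 1 line. The p-values therefore measure only the spread between these arrays, and an effect of a construct cannot be told apart from any other difference between the lines. Whether a line is a clone or a pool, and which promoter drives its construct, is not given in the sources used here.

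NME1 encodes a nucleoside diphosphate kinase, an enzyme that passes phosphate between nucleotides through a phosphorylated histidine. It was the first metastasis suppressor described, and its level is low in many metastatic melanomas. The protein also has 3′-5′ exonuclease activity on DNA and a protein histidine kinase activity. As background from earlier biochemistry, E5A is known as a change that weakens the exonuclease, and P96S as a change that weakens the protein histidine kinase while the exonuclease and the nucleotide kinase are largely kept. Comparing these lines sets the mutants against each other at the level of mRNA.

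The values are log2 expression values from RMA, in which a difference of 1 is a doubling. There were 18384 features, of which 14411 were genes with a single symbol. Correlations between arrays across all features were 0.987 to 0.994 within NME1-E5A, 0.931 to 0.992 within NME1-P96S and 0.960 to 0.993 between the lines. The interquartile range of values on an array was 2.71 to 2.80 in NME1-E5A and 2.33 to 3.16 in NME1-P96S. NME1-P96S replicate 3 was among the 3 narrowest arrays of the study, and NME1-P96S replicates 1 and 2 were the widest. In cultured lines measured in bulk, a lower level in every cell and a smaller share of expressing cells cannot be told apart. The 8 measured melanoma markers had a mean level of 7.14 to 7.21 on the NME1-E5A arrays and 7.16 to 7.37 on the NME1-P96S arrays, with SOX10 at 9.35 and 9.53 on average.

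The NME1 transcript itself was at closely similar levels in the mutant lines. The row for NME1, which also carries the NME1-NME2 read-through transcript (row 3726934), stood at 9.69, 9.77, 9.94 and 9.72 on the 4 NME1-E5A arrays and at 9.63, 9.87, 9.86 and 9.76 on the 4 NME1-P96S arrays. The means were 9.78 ± 0.108 and 9.78 ± 0.110 (SD, n = 4 arrays each), and the difference of 0.0046 (SE 0.119) was far within the spread between arrays (exact two-sided permutation p = 0.943, where the smallest possible p is 0.0286). The same row averaged 9.53 in Parent, 9.81 in NME1-wild-type and 9.75 in NME1-K12Q. The row reads the endogenous transcript too, and its probes do not separate a mutant from the wild-type sequence. For NME2, the neighbouring kinase gene (row 3726960), the difference was -0.03 (exact two-sided permutation p = 0.771). Of the 7 other measured genes of the family, 0 changed in either direction. Their differences ran from -0.03 for NME6 to 0.27 for NME5.

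Between the lines, 44 features changed at a limma adjusted p under 0.05 (Benjamini-Hochberg over the 18384 features) and a fold of at least 1.5, which is 0.239% of those tested. Of these, 24 were higher in NME1-E5A (0.131%) and 20 were lower (0.109%). They comprised 36 genes with a single symbol, 6 rows with several symbols and 2 rows that the annotation does not list. The differences were moderate, from 0.60 to 1.28 in size on the log2 scale, and the largest was 2.43-fold. The arrays of the lines did not overlap for any of the 44, while 3.01% of all features showed no overlap. The 44 were chosen for their difference on these same arrays, so this is no further support for them. The unadjusted p was under 0.05 for 756 features, or 4.11%, where 5% would be called with no difference at all. Only a small set of genes thus stood out from the spread between arrays.

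To describe which of the lines accounts for a difference, each mutant was set against the mean of Parent, NME1-wild-type and NME1-K12Q by the same thresholds. Over all features 0.25% passed for NME1-E5A and 0.239% for NME1-P96S. Among the 44 changed features, NME1-E5A alone stood apart from the other 3 lines in 16, NME1-P96S alone in 11, both in 0 and neither in 17. Of the 24 features higher in NME1-E5A, 12 stood apart through that line and 4 through a lower level in NME1-P96S. Of the 20 lower features, 7 stood apart through a higher level in NME1-P96S and 4 through a lower level in NME1-E5A. These counts describe features already chosen for their difference between the mutants, so they were not tested.

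**Figure D1:**
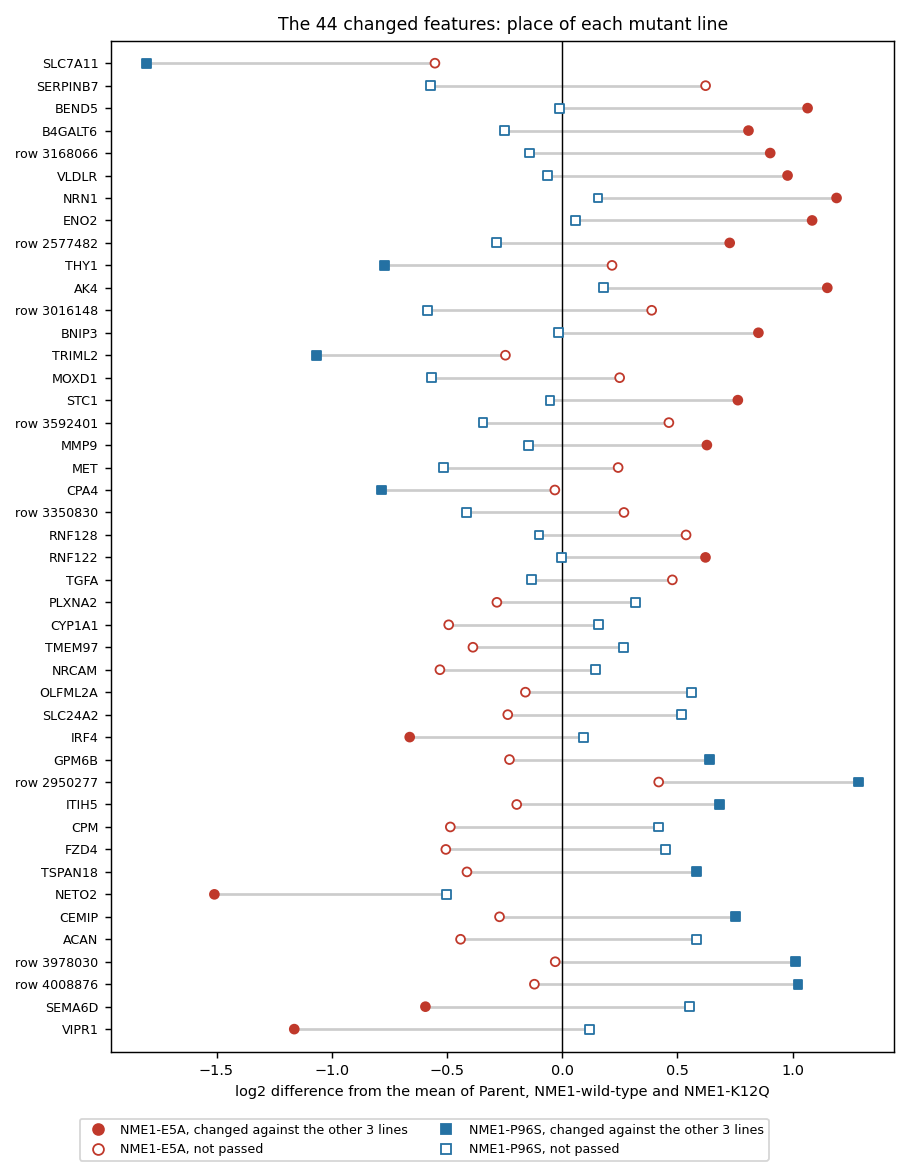
Log2 difference of each mutant line from the mean of Parent, NME1-wild-type and NME1-K12Q for the 44 changed features, circles for NME1-E5A and squares for NME1-P96S, filled where the line changed against that mean. The upper 24 features were higher in NME1-E5A and the lower 20 were lower. VIPR1 and NETO2 lie far to the left for NME1-E5A, and SLC7A11 and TRIML2 for NME1-P96S.

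Of the genes that were raised in NME1-E5A alone, ENO2, AK4, BNIP3 and STC1 are known targets of the hypoxia response. ENO2 encodes the neuronal form of the glycolytic enzyme enolase (row 3403015). It was at 8.98, 8.90, 8.85 and 9.06 on the NME1-E5A arrays and at 8.08, 7.86, 7.74 and 8.02 on the NME1-P96S arrays, a difference of 1.03 (SE 0.118, limma adjusted p = 0.000225), or 2.04-fold. All 4 NME1-E5A arrays lay above every NME1-P96S array, and the NME1-P96S mean of 7.92 lay among those of Parent at 7.65, NME1-wild-type at 7.88 and NME1-K12Q at 8.07. AK4, a mitochondrial adenylate kinase (row 2340315), was at 8.95, 8.91, 8.97 and 8.77 against 8.08, 8.21, 7.56 and 7.87, a difference of 0.97 (SE 0.199, limma adjusted p = 0.0378). BNIP3, a mitochondrial protein that promotes mitophagy (row 3314040), was at 10.79, 10.48, 10.64 and 10.55 against 10.12, 9.79, 9.36 and 9.73, a difference of 0.87 (SE 0.157, limma adjusted p = 0.0124). STC1, the secreted glycoprotein stanniocalcin 1, was at 8.04, 8.01, 8.09 and 8.15 against 7.55, 7.37, 6.90 and 7.20, a difference of 0.82 (SE 0.146, limma adjusted p = 0.0113). In each of the 4 genes NME1-E5A had the highest mean of the 5 lines, and Parent the lowest. The ENO2 call held when any single array was left out. The AK4 call was lost without any single array of the lines except NME1-P96S replicate 2, with differences of 0.85 to 1.07, and also without 8 of the 12 arrays of the other lines. The BNIP3 call was lost without NME1-E5A replicate 1 or 3 or NME1-P96S replicate 4, with differences of 0.74 to 0.99, and the STC1 call without NME1-E5A replicate 3 or 4 or NME1-P96S replicate 4, with differences of 0.70 to 0.91.

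Hypoxia-inducible factors bind DNA at a core of the letters ACGTG, so the promoters of these genes were searched for it on both strands, except STC1, for which no window was used here. RefSeq promoter windows of assembly GRCh38.p14, 250 bases before to 50 after the annotated start, were used, the first window of a gene where it has several. The stretches around the match are shown for ENO2, AK4 and BNIP3, each of which has one in its window, 5′ to 3′ on the gene's strand, with the match in capitals. In AK4 and BNIP3 the capitals hold 2 overlapping matches, 1 on each strand.
ENO2 (plus strand, chr12:6914440-6914488, match 118 bases before the start): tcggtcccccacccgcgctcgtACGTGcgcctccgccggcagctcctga
AK4 (plus strand, chr1:65147437-65147486, match 93 bases before the start): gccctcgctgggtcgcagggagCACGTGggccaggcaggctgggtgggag
BNIP3 (minus strand, chr10:131982030-131982079, match 134 bases before the start): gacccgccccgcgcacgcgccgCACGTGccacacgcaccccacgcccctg
The letters ACGTG occurred in 21.6% of all 27305 promoter windows. They occurred in 5 of the 13 genes higher in NME1-E5A that have a window (38.5%), including MET and RNF128, and in 3 of 16 lower genes (18.8%), namely CYP1A1, GPM6B and SEMA6D. Among gene lists the share was 42.9% for glycolysis, 29.4% for sterol synthesis and 14.3% for NRF2 targets. It was 37.5% (3 of 8) for MHC class II, most of whose members were higher in NME1-P96S. Other motifs were searched too, such as the antioxidant response core TGANNNNGC, in 46.2% of higher genes against 42.1% of all windows. A match is a description of the letters in the window and not evidence that a factor binds there.

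The wider hypoxia list showed the same side for nearly all members, though almost all were short of the test. Of 27 measured genes of the list "hypoxia response outside glycolysis", BNIP3 alone changed, 25 had a value above 0, and the median difference was 0.37, against 58.7% of all features above 0 and a median of 0.03. Without NME1-E5A replicate 1 or 3, or NME1-P96S replicate 4, the count of changed members was 0, and it was 2 without NME1-P96S replicate 3 and 3 without Parent replicate 4. NDRG1, a stress-induced gene, differed by 0.07, and HIF1A, which encodes the oxygen-regulated subunit of the factor, by -0.24. Among members named after their values were seen, INSIG2, a regulator of sterol synthesis, differed by 0.84 (SE 0.197, limma adjusted p = 0.0957), the collagen prolyl hydroxylase P4HA2 by 0.76 (SE 0.171, limma adjusted p = 0.0749), the secreted lipase inhibitor ANGPTL4 by 0.82 and the angiogenic factor VEGFA by 0.40, none of which passed. With the interquartile range of each array as a covariate, 8 members of "hypoxia response outside glycolysis" were changed, all higher in NME1-E5A. Of the 27 genes, 23 had a promoter window and 12 of these held ACGTG (52.2%).

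Glycolytic enzymes lay on the same side with smaller differences. Of 21 measured genes of the list "glycolysis and pyruvate handling", ENO2 alone changed, 19 were above 0 and the median was 0.20. The count of changed members was 2 without NME1-E5A replicate 1, or without NME1-P96S replicate 1 or 4. The platelet phosphofructokinase PFKP, named after its values were seen, differed by 0.58 (SE 0.102, limma adjusted p = 0.00913) and so passed the p threshold but not the fold. GAPDH differed by 0.12 and ENO1 by 0.20, and PDK1, which restrains entry of pyruvate into mitochondria, by 0.71 without passing. Among the 6 measured adenylate kinase genes only AK4 changed. The others ran from -0.21 for AK5 to 0.09 for CMPK1.

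Other genes that passed as raised in NME1-E5A alone act in lipoprotein uptake, neurite growth, glycolipid synthesis and matrix degradation. VLDLR, the very low density lipoprotein and reelin receptor (row 3160175), was at 7.60, 7.72, 7.70 and 7.65 on the NME1-E5A arrays and at 6.85, 6.87, 6.20 and 6.57 on the NME1-P96S arrays, a difference of 1.04 (SE 0.132, limma adjusted p = 0.000357). NME1-P96S replicate 3 gave the lowest of these values, and without it the difference was 0.90. None of the other 9 measured genes of the low density lipoprotein receptor family changed, and they ran from -0.26 for LRP6 to 0.21 for LRP2. NRN1 encodes neuritin, a membrane-anchored protein that promotes neurite growth (row 2940145). It was at 10.28, 10.01, 9.91 and 9.88 against 9.18, 9.09, 8.65 and 9.02, a difference of 1.04 (SE 0.154, limma adjusted p = 0.00187), while Parent, NME1-wild-type and NME1-K12Q averaged 8.67, 9.0 and 8.82. BEND5, a protein with a DNA-binding BEN domain (row 2411799), was at 6.54, 6.29, 6.17 and 6.23 against 5.31, 5.22, 5.39 and 5.01, a difference of 1.08 (SE 0.134, limma adjusted p = 0.000344). Its NME1-P96S mean of 5.23 was close to the 5.15, 5.36 and 5.22 of the other lines. B4GALT6, a lactosylceramide synthase, was at 6.92, 6.84, 7.02 and 6.68 against 5.82, 6.27, 5.46 and 5.67, a difference of 1.06 (SE 0.152). Its mean was 5.84 in Parent and 5.95 in NME1-wild-type, while NME1-K12Q at 6.38 lay between these and NME1-E5A. The calls of VLDLR, NRN1, BEND5 and B4GALT6 held without any single array. MMP9, a secreted gelatinase, was at 6.95, 6.82, 6.95 and 7.10 against 5.90, 6.0, 6.57 and 6.25, a difference of 0.78 (SE 0.144, limma adjusted p = 0.0159). Its call was lost without any single array except NME1-E5A replicate 2 and NME1-P96S replicate 3, with differences of 0.68 to 0.91. RNF122, a ubiquitin ligase, differed by 0.63, and its call was lost without any single array except NME1-P96S replicates 1 and 4, with differences of 0.52 to 0.68. The row shared by TMEM163 and CCNT2-AS1 (row 2577482) differed by 1.01 and the unlisted row 3168066 by 1.04, the latter lost without any single array of the lines except NME1-P96S replicate 3, with differences of 0.91 to 1.22. The call of row 3168066 was also lost without Parent replicate 1 or 3, or any single array of NME1-wild-type or NME1-K12Q.

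Of the changed features, 4 passed as low in NME1-E5A alone against the other 3 lines: VIPR1, NETO2, SEMA6D and IRF4. VIPR1, the G protein-coupled receptor for vasoactive intestinal peptide (row 2619265), had the largest difference of all features called. It was at 7.41, 7.47, 7.41 and 7.27 on the NME1-E5A arrays and at 8.49, 8.83, 8.79 and 8.58 on the NME1-P96S arrays, a difference of -1.28 (SE 0.138, limma adjusted p = 0.000114), and Parent, NME1-wild-type and NME1-K12Q averaged 8.65, 8.43 and 8.58. All 4 NME1-E5A arrays were thus below every NME1-P96S array and below the means of the other 3 lines, which lay near NME1-P96S. NETO2 encodes an auxiliary subunit of kainate receptors (row 3690154). It was at 4.46, 4.57, 4.35 and 4.60 against 5.58, 5.64, 5.24 and 5.55, a difference of -1.01 (SE 0.118, limma adjusted p = 0.000225). The reference lines differed among themselves for this gene, with NME1-wild-type at 6.71 against 5.60 in Parent and 5.70 in NME1-K12Q. NME1-P96S was also 0.50 lower than the mean of those 3 lines (-0.50, limma adjusted p = 0.015), short of the fold threshold. SEMA6D, a membrane-bound semaphorin that guides axons and migrating cells (row 3592755), was at 5.66, 5.89, 5.81 and 5.93 against 7.07, 7.27, 6.59 and 6.94, a difference of -1.15 (SE 0.143, limma adjusted p = 0.000344). Parent, NME1-wild-type and NME1-K12Q averaged 6.66, 6.27 and 6.32, between the mutants. From the mean of those lines NME1-E5A differed by -0.593 (limma adjusted p = 0.0217) and NME1-P96S by 0.553 (limma adjusted p = 0.0371). Both mutants thus departed by similar amounts, and only the fold threshold of 0.585 on the log2 scale separates them. IRF4, a transcription factor of the melanocyte lineage (row 2891341), was at 6.88, 6.94, 6.82 and 6.77 against 7.61, 7.84, 7.48 and 7.49, a difference of -0.76 (SE 0.115, limma adjusted p = 0.00246). These 4 calls held without any single array. IRF4 was the only changed member of 18 measured genes of melanocyte lineage and pigmentation, whose median was -0.02. SOX10 differed by -0.18 and GPNMB by -0.49 without passing.

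**Figure D2:**
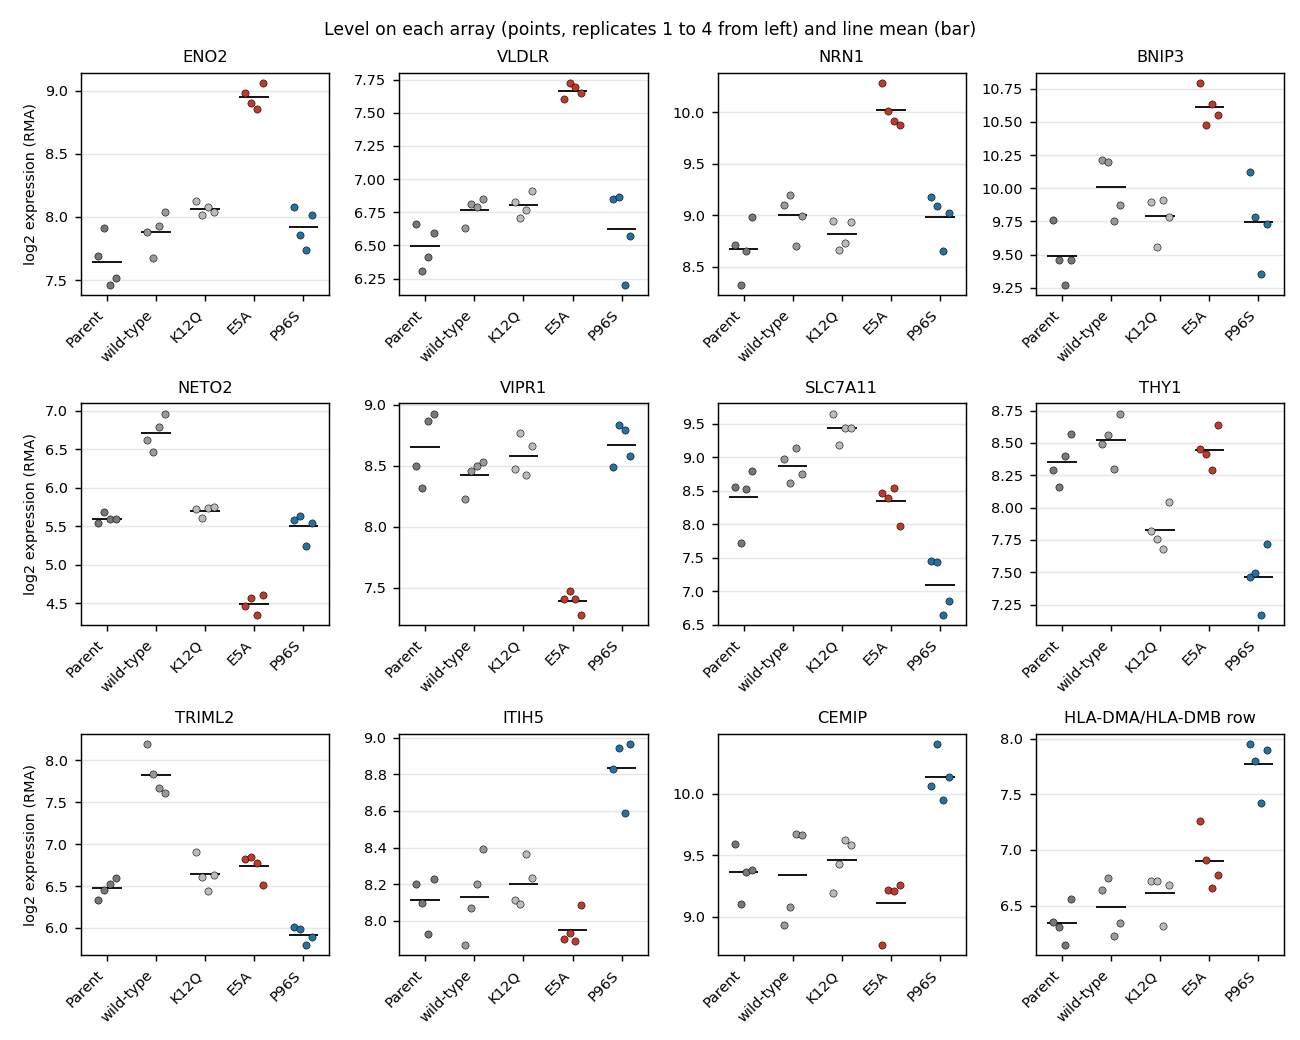
Log2 RMA level of 11 changed genes and of the row shared by HLA-DMA and HLA-DMB on every array of the 5 lines, with a bar at each line's mean and a separate axis for each panel. ENO2, VLDLR, NRN1 and BNIP3 are highest and NETO2 and VIPR1 lowest in NME1-E5A, while SLC7A11, THY1 and TRIML2 are lowest and ITIH5, CEMIP and the HLA-DMA/HLA-DMB row highest in NME1-P96S.

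A second set of genes passed as low in NME1-P96S alone against the other 3 lines, and so appears higher in NME1-E5A. SLC7A11 is the cystine importer that supplies glutathione synthesis (row 2786322). It was at 8.47, 8.40, 8.55 and 7.98 on the NME1-E5A arrays and at 7.45, 7.44, 6.64 and 6.86 on the NME1-P96S arrays, a difference of 1.25 (SE 0.219, limma adjusted p = 0.00913), or 2.38-fold. NME1-E5A was close to the Parent mean of 8.40, with NME1-wild-type at 8.87 and NME1-K12Q at 9.43, and the difference of NME1-P96S from the mean of those lines was -1.804. The spread within NME1-P96S was wide (SD 0.412, n = 4), and the call was lost without NME1-E5A replicate 3 or NME1-P96S replicate 4, with differences of 1.10 to 1.38. THY1, a surface glycoprotein common on fibroblasts and neurons (row 3394412), was at 8.46, 8.41, 8.29 and 8.64 against 7.46, 7.50, 7.17 and 7.72, a difference of 0.99 (SE 0.136, limma adjusted p = 0.000903). Its mean was 8.35 in Parent and 8.52 in NME1-wild-type but 7.82 in NME1-K12Q, so a lower THY1 level was not particular to NME1-P96S. THY1 was the only changed one of 11 fibroblast markers, whose mean level was 6.31 to 6.49 on the NME1-E5A arrays and 6.09 to 6.33 on the NME1-P96S arrays. TRIML2, a tripartite motif family-like protein (row 2797771), was at 6.82, 6.85, 6.77 and 6.52 against 6.02, 5.98, 5.79 and 5.89, a difference of 0.82 (SE 0.134, limma adjusted p = 0.00493). Its mean was 7.83 in NME1-wild-type, 6.48 in Parent and 6.65 in NME1-K12Q, so NME1-P96S was the lowest line and NME1-E5A lay near Parent. CPA4, a secreted carboxypeptidase, was at 6.34, 6.33, 6.35 and 6.32 against 5.64, 5.65, 5.51 and 5.53, a difference of 0.75 (SE 0.147, limma adjusted p = 0.0249). The arrays differed little within these lines for CPA4 (SD 0.0135 and 0.0746, n = 4 each) and more within NME1-K12Q (SD 0.33, n = 4), whose spread enters the same fit. Its call was lost without any single array except NME1-P96S replicate 3, with differences of 0.73 to 0.78.

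The remaining features that set NME1-P96S apart were high in it, and they include matrix-related genes, a row of class II antigen presentation and rows of the SSX family. CEMIP, a protein that promotes hyaluronan breakdown (row 3604147), was at 10.06, 10.40, 9.95 and 10.14 on the NME1-P96S arrays and at 8.77, 9.22, 9.21 and 9.26 on the NME1-E5A arrays, a difference of -1.02 (SE 0.175, limma adjusted p = 0.00764). ITIH5, a hyaluronan-binding inhibitor of the inter-alpha-trypsin inhibitor family (row 3276337), was at 8.83, 8.94, 8.59 and 8.97 against 7.90, 7.93, 7.89 and 8.09, a difference of -0.88 (SE 0.125, limma adjusted p = 0.00117). For both genes Parent, NME1-wild-type and NME1-K12Q lay near NME1-E5A, at 9.34 to 9.46 for CEMIP and 8.11 to 8.20 for ITIH5. ITIH5 was the only changed gene of 32 measured in the extracellular matrix list. The tetraspanin TSPAN18 differed by -0.998 (SE 0.133) and was the only changed one of 25 measured tetraspanins. From the mean of Parent, NME1-wild-type and NME1-K12Q its level in NME1-P96S differed by 0.585 (limma adjusted p = 0.0118), only just reaching the fold threshold. NME1-E5A differed from that mean by -0.413. GPM6B, a neural membrane proteolipid, differed by -0.87 (SE 0.136). The calls of CEMIP, ITIH5, TSPAN18 and GPM6B between the mutants held without any single array.

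The row shared by HLA-DMA and HLA-DMB (row 2950277), which encode the chaperone that loads peptide onto class II molecules, was at 7.95, 7.80, 7.42 and 7.90 on the NME1-P96S arrays and at 7.26, 6.91, 6.66 and 6.77 on the NME1-E5A arrays. The difference was -0.87 (SE 0.160, limma adjusted p = 0.0156). Both mutants were above Parent at 6.34, NME1-wild-type at 6.49 and NME1-K12Q at 6.61, NME1-P96S the more so. The call was lost without any single array except NME1-E5A replicate 1 and NME1-P96S replicate 3, with differences of -0.99 to -0.79. A separate row for HLA-DMB differed by -0.48 and did not pass, so the rows for this gene differ in their call. The SSX genes encode cancer-testis antigens, and 2 of their rows were higher in NME1-P96S. Row 4008876, shared by SSX2 and its near-identical copies, was at 5.79, 5.83, 5.78 and 5.47 in NME1-P96S against 4.75, 4.68, 4.29 and 4.56 in NME1-E5A, a difference of -1.14 (SE 0.159, limma adjusted p = 0.000996). Row 3978030, shared by SSX2, SSX2B and SSX3, differed by -1.04. Probes may be shared between these copies, so neither difference can be given to a single SSX gene. None of the 6 cancer-testis genes measured by a row of their own changed.

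For 17 changed features neither mutant passed against the other 3 lines, and in all 17 the mutants lay on opposite sides of the mean of those lines. The thresholds largely fix this position in advance, so it is not a separate result. Mutants that differ by at least 0.60 must lie on opposite sides where each is within 0.585 of that mean. FZD4, a Frizzled receptor for Wnt and norrin (row 3385509), was at 6.41, 6.45, 6.40 and 6.54 on the NME1-E5A arrays and at 7.35, 7.38, 7.37 and 7.51 on the NME1-P96S arrays, a difference of -0.95 (SE 0.10, limma adjusted p = 0.000114). Parent, NME1-wild-type and NME1-K12Q averaged 7.05, 6.88 and 6.93, between the mutants. FZD4 was the only changed one of 29 measured Wnt ligands, receptors and antagonists. ACAN, the cartilage proteoglycan aggrecan (row 3607332), was at 6.73, 6.99, 6.82 and 7.01 against 7.77, 8.07, 7.88 and 7.94, a difference of -1.03 (SE 0.122, limma adjusted p = 0.000225). Its level in NME1-P96S differed from the mean of the other 3 lines by 0.5849 (limma adjusted p = 0.00624). Only the fold threshold thus keeps ACAN out of the features that set NME1-P96S apart. SERPINB7, an intracellular serine protease inhibitor (row 3791896), was at 6.42, 6.43, 6.18 and 6.14 against 5.63, 5.05, 4.68 and 5.03, a difference of 1.19 (SE 0.170, limma adjusted p = 0.00117). In these 3 genes NME1-E5A and NME1-P96S were the outermost of the 5 lines. CPM, a membrane-bound carboxypeptidase, was at 7.13, 7.06, 7.07 and 6.98 against 8.25, 8.21, 7.53 and 7.87, a difference of -0.90 (SE 0.148). The calls of FZD4, ACAN, SERPINB7 and CPM held without any single array, but that of SERPINB7 was lost with quantile normalisation.

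Growth factor signalling contributed a receptor and a ligand. MET, the receptor for hepatocyte growth factor (row 3020343), was at 5.41, 5.52, 5.55 and 5.42 in NME1-E5A and at 4.61, 4.94, 4.67 and 4.66 in NME1-P96S, a difference of 0.76 (SE 0.122, limma adjusted p = 0.00468). TGFA, a ligand of the epidermal growth factor receptor (row 2558612), was at 6.25, 6.20, 6.24 and 6.19 against 5.64, 5.54, 5.66 and 5.60, a difference of 0.61 (SE 0.116, limma adjusted p = 0.0197). The TGFA call was lost without any single array except NME1-P96S replicate 3, with differences of 0.59 to 0.63, and it was the only changed one of 16 EGF ligands, ERBB receptors and their inhibitors. In the list of 10 measured motility genes reported as repressed by NME1, MET was higher in NME1-E5A and NETO2 lower, and the median was -0.11. The unlisted row 3016148 differed by 0.97 with a call that held without any single array. The row shared by COXFA4L3 and MIR147B (row 3592401) differed by 0.81 and the row shared by TAGLN and PCSK7 (row 3350830) by 0.68. The first was lost without NME1-E5A replicate 1 or 3 or NME1-P96S replicate 2 or 4, with differences of 0.67 to 0.93, and the second without any single array of the lines except NME1-P96S replicate 3, with differences of 0.60 to 0.81. The second was also lost without Parent replicate 1, any single NME1-wild-type array, or NME1-K12Q replicate 1, 3 or 4. The remaining changed genes in which neither line stood apart were MOXD1 (0.82) and RNF128 (0.64) on the higher side. On the lower side they were SLC24A2 (-0.75), OLFML2A (-0.72), NRCAM (-0.68), TMEM97 (-0.66), CYP1A1 (-0.65) and the semaphorin receptor PLXNA2 (-0.60). Of these 8 only the OLFML2A call held without any single array. MOXD1 was lost only without NME1-E5A replicate 1, and its difference stayed between 0.70 and 0.89. The calls of the other 6 were each lost without 4 to 7 of the 8 arrays when left out in turn. Every one kept its sign, which arrays that do not overlap fix in advance. Those of NRCAM and TMEM97 were also lost without some single arrays of the other lines.

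Several gene groups lay mostly on one side although few or none of their members passed. All 12 measured members of the MHC class II list were short of the test, with 2 above 0 and a median of -0.38, so that levels were mostly higher in NME1-P96S. CD74, the invariant chain, was at 9.89, 9.67, 9.69 and 9.71 in NME1-E5A and 10.29, 10.19, 10.10 and 10.31 in NME1-P96S, and HLA-DPA1 differed by -0.46. From the mean of Parent, NME1-wild-type and NME1-K12Q, NME1-P96S differed by 0.84 for CD74 (limma adjusted p = 0.0017). For HLA-DPA1 it differed by 0.88 (limma adjusted p = 0.0062), and both passed. NME1-E5A also lay above that mean, by 0.36 and 0.41, without passing. CIITA, the class II transactivator, named after its values were seen, differed by -0.60 (SE 0.128, limma adjusted p = 0.0545). It or another member of the list passed in some fits, with 1 member of MHC class II presentation changed without NME1-E5A replicate 4 or Parent replicate 2 or 4, and 1 with arrays centred on their medians. Sterol and fatty acid synthesis also leaned to NME1-P96S, with 0 of 19 measured genes changed, 1 above 0 and a median of -0.28. DHCR7, a late enzyme of cholesterol synthesis, named after its values were seen, differed by -0.57 (SE 0.0937, limma adjusted p = 0.00515), just short of the 1.5-fold threshold of 0.585 on the log2 scale. HMGCS1, the cytosolic HMG-CoA synthase, named in the same way, differed by -0.88 with a wide error (SE 0.294), and SCD by -0.03. Without NME1-P96S replicate 3, or without NME1-E5A replicate 3, 1 gene of the list sterol and fatty acid synthesis changed.

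Interferon-stimulated genes were mostly higher in NME1-E5A than in NME1-P96S, with 0 of 26 measured genes changed, 24 above 0 and a median of 0.21. IFI6 was at 9.63, 9.12, 8.96 and 9.16 in NME1-E5A against 8.77, 8.50, 8.41 and 8.89 in NME1-P96S, with no overlap but a difference of 0.57 that did not pass, while IRF1 differed by 0.03. IFI6 averaged 9.26 in Parent, 9.56 in NME1-wild-type and 9.81 in NME1-K12Q. From the mean of those lines NME1-P96S differed by -0.90 (limma adjusted p = 0.0066) and NME1-E5A by -0.33 without passing. For this gene the low line was thus NME1-P96S. Without NME1-P96S replicate 3, 19 of the interferon-stimulated genes were above 0 with a median of 0.20, and without Parent replicate 2, 1 of them changed. Of 17 measured NRF2 antioxidant targets SLC7A11 alone changed, and with it included 14 were above 0 and the median was 0.13. FTL, the ferritin light chain, differed by -0.02. The share of features above 0 also moved with the level of a row. With the features split into 4 classes of equal size by mean level, it was 65.4% in the faintest class, 63.7% in the next, and 52% and 53.8% in the brighter ones. The part of this shift in the counts above 0 was not tested.

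**Figure D3:**
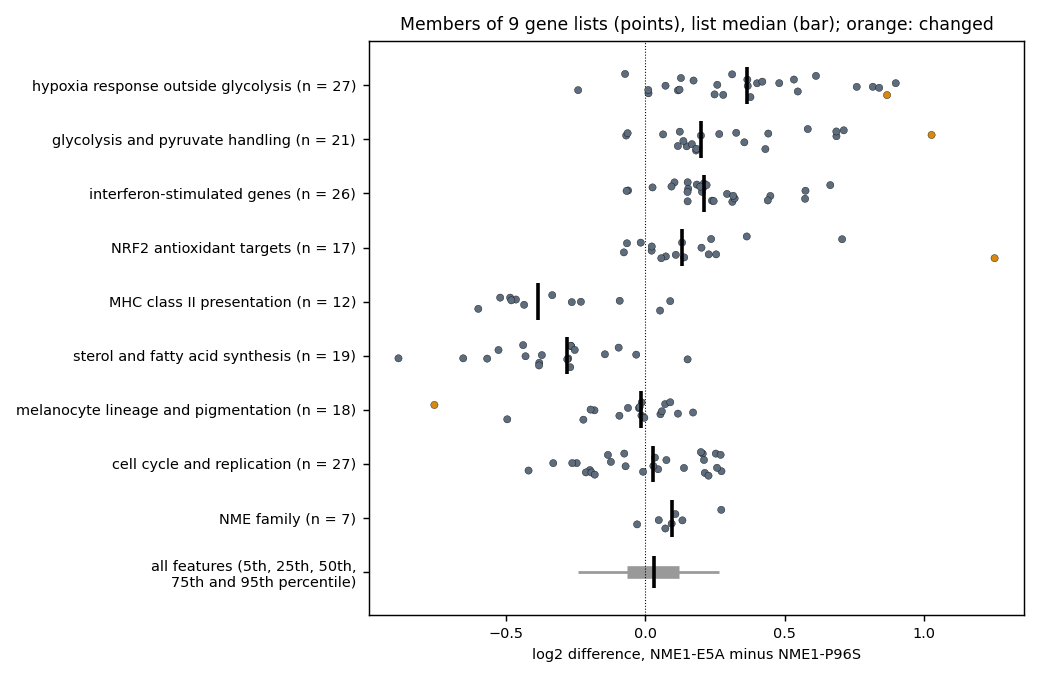
Log2 difference between NME1-E5A and NME1-P96S for the measured members of 9 gene lists, 1 point a gene, with a bar at the list median, and the percentiles of all features in the lowest row. Orange points mark changed genes, 1 each in the hypoxia, glycolysis, NRF2 and melanocyte lists, and the hypoxia median of 0.37 and the class II median of -0.38 lie on opposite sides of 0.

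Other groups showed little difference. Of 38 gene lists, 17 had at least 1 changed member and 21 had none, and the lists overlap in genes such as SLC7A11, VLDLR, NETO2 and THY1. No gene changed among 27 of the cell cycle and replication, 28 of nucleotide synthesis and salvage, 18 of DNA repair and the SET complex, or 15 targets of p53, and the medians of these lists lay between -0.04 and 0.03. No gene changed either among 22 of MAPK feedback and output (median -0.05), 23 integrins and focal adhesion genes (0.10) and 14 metastasis suppressors (0.06). Among 31 matrix proteases and inhibitors MMP9 and CPA4 changed and MMP2 differed by -0.15. SEMA6D and PLXNA2 were the changed members of 29 semaphorins, plexins and neuropilins, both lower in NME1-E5A although 20 of the 29 were above 0. No marker of leukocytes, endothelium, or keratinocytes and epithelium changed. Yet all 12 measured leukocyte markers were above 0 (median 0.11), as were 7 of 10 of endothelium and 7 of 11 of keratinocytes and epithelium. Having nearly all members above 0 was thus not particular to the hypoxia, glycolysis and interferon lists. Leukocyte markers had a mean level of 4.71 to 4.84 on the NME1-E5A arrays and 4.28 to 5.24 on those of NME1-P96S, where the spread between arrays was wider.

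The number of changed features depended on how the spread between arrays was handled. All 44 features kept their sign under each of the 33 settings tried in which they were tested. For most settings this was fixed in advance. Arrays that do not overlap keep the sign when some are left out, and many settings leave the difference itself unchanged. The kept sign is therefore no further support. With only the 8 arrays of these lines in the fit, 7 were changed, namely BEND5 and ENO2 on the higher side and VIPR1, FZD4, ACAN, NETO2 and row 4008876 on the lower. With the interquartile range of each array as a covariate, 87 were changed, 57 higher and 30 lower in NME1-E5A, or 65.5% higher against 54.5% of the 44. Without NME1-P96S replicate 3 there were 86, and 41 of the original 44 were among them. Leaving out any other array of the lines gave 27 to 35. Of the 44 calls, 25 held through every fit that left out 1 array of the lines.

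**Figure D4:**
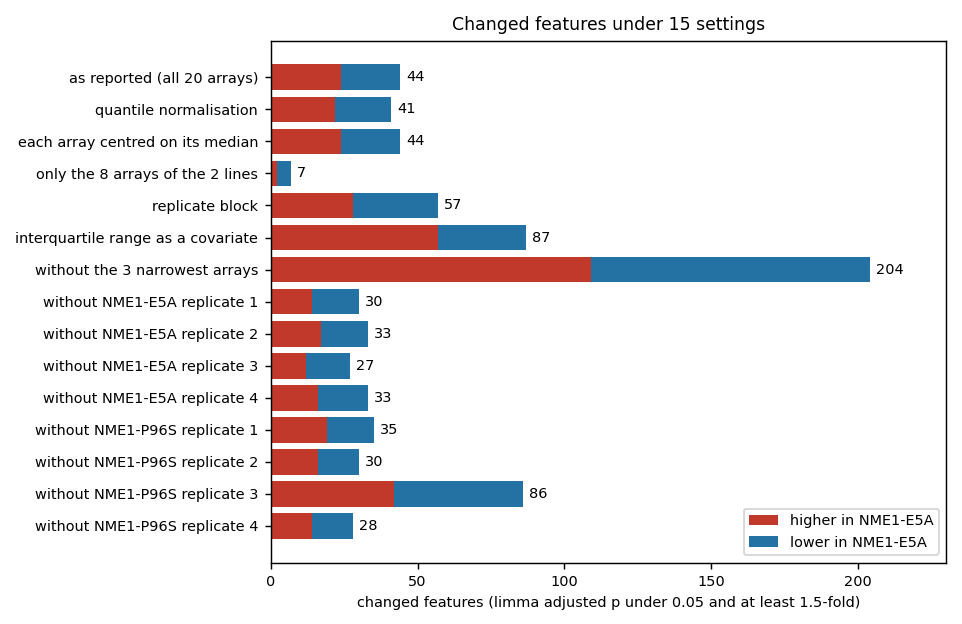
Number of changed features under 15 settings, split into features higher (red) and lower (blue) in NME1-E5A. The count is 44 as reported, 7 in the fit on 8 arrays, 86 without NME1-P96S replicate 3, and 204 without the 3 narrowest arrays, and a fit with array weights (551) is not drawn.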

How the data were processed

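Expression was measured in 5 lines with 4 Human Exon 1.0 ST arrays each. The authors deposited log2 values after RMA normalisation, as the series' design text states. The submitters' processing notes name RMA and limma without versions, and the genome build, annotation release and background settings are not given in the sources used here. RMA quantile-normalises arrays as a rule, yet the interquartile ranges of the arrays differ, so a quantile-normalised version was tried. Sample titles gave the line and the replicate number, and 0 value columns belonged to no sample. No depth applies to arrays, and their number limits the precision.

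The table has 18708 rows of transcript clusters. The platform annotation lists 17608 of them, 14735 with a single symbol and 2873 with several, and 1100 are unlisted. Of the single symbols 14705 matched RefSeq (GRCh38.p14) by gene ID and 0 were updated. The row with the highest mean stood for a gene, which left out 324 rows. Rows with several symbols or none were kept by identifier.

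With limma 3.58.1 in R 4.3.3, lmFit and eBayes were run on the 20 arrays with a mean per line, 15 residual degrees of freedom and a spread estimated over all lines together. The two-sided contrast was NME1-E5A minus NME1-P96S with Benjamini-Hochberg adjustment over 18384 features, and a changed feature had at least a 1.5-fold difference with adjusted p below 0.05. The code of the fit was run on simulated data with independent arrays of like width. The real arrays differ in width, so this run does not bear on how reliable the counts are. Figures were drawn with matplotlib 3.10.9 in Python 3.11.15. The NME1 row was tested by exact permutation of 4 against 4 arrays. Alternatives covered normalisation, samples fitted, array weights, filters and thresholds, and each array left out in turn.

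The comparison and the 38 gene lists were chosen with earlier results of these data known, so a list's direction is no independent support. Genes were named by a rule: up to 20 changed genes in each direction, up to 5 changed rows in each direction among those with several symbols or none, the NME family, and in each list up to 6 changed members and the 2 brightest members that did not pass. Some list members outside it are named as the ends of a list's range, after their values were seen.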

Additional observations from a re-analysis of the deposited data

Results flagged for a closer look

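In the named rows, each line's 4 arrays were checked for a single array far from the other 3 by Dixon's ratio of gap to range (95% critical value). Of 244 groups of 4 arrays, 17 exceeded it (6.97%), where chance gives about 1 in 20.

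Among changed features, MET was at 4.94 on NME1-P96S replicate 2 and at 4.61 to 4.67 on the other 3 arrays of the line. CEMIP was at 8.77 on NME1-E5A replicate 1 against 9.21 to 9.26. SLC24A2 was at 6.18 on NME1-P96S replicate 3 against 6.73 to 6.83, and without that array its difference moved from -0.75 to -0.90. Row 4008876 of the SSX family was at 5.47 on NME1-P96S replicate 4 against 5.78 to 5.83.

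NME1-E5A replicate 1 gave the distant value for 4 further genes. These were AK1 at 8.55 (others 7.99 to 8.01), HLA-DPA1 at 10.38 (9.95 to 10.02), ACLY at 10.45 (10.84 to 10.88) and SMAD3 at 9.66 (10.004 to 10.07). On NME1-E5A replicate 4 they were NME9 at 4.68 (4.53 to 4.55), GPNMB at 8.66 (8.94 to 8.95) and PRRX1 at 7.24 (7.42 to 7.44). CALR was at 11.01 on NME1-E5A replicate 2 (11.17 to 11.19), and CLDN5 was at 6.68 on NME1-E5A replicate 3 (6.51 to 6.54).

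In NME1-P96S, replicate 3 stood apart for CTAG2 at 7.43 (6.07 to 6.19) and NME8 at 3.32 (2.99 to 3.02). NME4 was at 9.5 on replicate 2 (9.66 to 9.67), and CD82 at 10.38 on replicate 4 (10.08 to 10.1). For CTAG2, 1 of the cancer-testis genes, this array alone exceeded the NME1-E5A arrays, which lay between 6.68 and 6.86.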

How the results depend on the processing

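The count of 44 changed features (24 higher, 20 lower in NME1-E5A) became 7 (2 and 5) with only the 8 arrays of the lines, 87 (57 and 30) with each array's interquartile range as covariate, 551 (337 and 214) with array weights, 204 (109 and 95) without the 3 narrowest arrays, 16 (9 and 7) at a fold of at least 2, and 0 (0 and 0) with limma's treat against 1.5-fold, where 756 features had an unadjusted p under 0.05 in the ordinary fit. Leaving out 1 array gave 27 to 86 changed (12 to 42 higher, 14 to 44 lower). The highest count came without NME1-P96S replicate 3 (86), and the lowest without NME1-E5A replicate 3 (27) and NME1-P96S replicate 4 (28). Leaving out 1 of the 12 arrays of the other lines gave 39 to 57. Quantile normalisation gave 41, median centring 44, a trended robust prior 40, leaving out the dimmest rows 43, all rows 44 and no fold threshold 48. Of the original 44, only 33 stayed changed with quantile normalisation and 39 with median centring. The calls lost with quantile normalisation include SERPINB7, MET, MOXD1 and CPA4. With the replicate block the count was 57 (28 and 29), and 43 of the 44 were among them. Whether the replicate numbers pair the arrays is not settled by correlations between NME1-E5A and NME1-P96S alone. Deviations of same-numbered arrays from their line means correlated between -0.26 and 0.49, and 2 of 4 numbers exceeded 0.1. The correlation was 0.492 for number 1 and 0.417 for number 4, but 0.083 for number 2 and -0.261 for number 3. Some rows were highest on replicate 1 in every line, among them RP2, SPRY2 and MMP1, picked after their values were seen. On that replicate RP2 was at 8.25 in Parent, 8.21 in NME1-wild-type, 7.98 in NME1-E5A, 8.01 in NME1-K12Q and 8.02 in NME1-P96S. How many rows do so was not counted. A batch shared by arrays of the same number was not tested, and the main fit makes no allowance for it. The NME1 difference of 0.0046 turned to -0.0096 with median centring and ran from -0.0471 to 0.0344 when 1 array was left out, including -0.0444 and -0.0026 when NME1-P96S replicate 1 or 4 was omitted. With the replicate block its exact sign-flip p was 1, where the smallest possible is 0.125. Over named genes and settings, 3741 of 4019 values kept their call, 271 no longer passed, 7 newly passed and 0 reversed. Most settings could not turn the sign of a changed feature, so the absence of reversals was largely fixed in advance. The causes were not tested. RMA values carry no detection call, and the filter on dim rows left out 4 of the 44, NRCAM, CYP1A1, GPM6B and row 4008876.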
